A study of Mus musculus with 4 samples.

Results

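The kidney of diabetic mice that kept both kidneys was compared with the remaining kidney of nondiabetic mice that had lost one. The members were chosen by sample label: the array titled diabetes sham against the array titled control uninephrectomy, 2 of the 4 arrays of the series. Each gene was described by its log2 difference, diabetic sham minus nondiabetic uninephrectomy, so a positive value means a higher signal in the diabetic kidney. Of 18193 annotated genes, 11206 counted as expressed and carry every count below.

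The diabetic sham group was female OVE26 transgenic mice on the FVB/NJ background, given a sham operation at 2 months of age. The nondiabetic uninephrectomy group was their female control littermates, which had 1 kidney removed at the same age. All were killed at 4.5 months, 10 weeks after surgery, and the kidneys were flushed with buffered saline. RNA of 4 mice was pooled for each array, with 100 ng taken for labelling. The other arrays of the series, nondiabetic sham and diabetic uninephrectomy, were made from such pools too and are used here only to place the values. OVE26 mice carry a calmodulin transgene driven in pancreatic beta cells, so their diabetes follows beta cell failure from early life. With 1 array a group and pooled mice, no value has an error or a p-value, the spread between animals was not measured, and the number of arrays limits the precision. The comparison changes genotype and surgery together, so the part of each in a difference can be read only by setting both arrays against the nondiabetic sham array.

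Both conditions are known to enlarge the kidney. After uninephrectomy the remaining kidney grows to take over filtration and transport, mostly by enlargement of proximal tubule cells. In diabetes the tubule meets a high load of filtered glucose, insulin signalling is lost and the kidney also grows early in the disease. Kidney weight was not among the values used here.

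The deposited signals were already scaled to a common level, and they were put on the log2(signal + 26.4) scale, which shrinks the differences of dim genes. The 2 arrays were alike in the hybridisation spike-ins, bacterial RNAs added before hybridisation: their 18 probe sets had a geometric mean signal of 5773 on the diabetic sham and 5713 on the uninephrectomy array, a ratio of 1.01. The poly-A spike-ins differed by a ratio of 1.06 over 24 probe sets. The 18S ribosomal RNA probe sets were 1.29-fold higher on the diabetic sham array. The 3' to 5' signal ratio of Actb, a sign of RNA integrity, was 3.72 against 3.49, and that of Gapdh was 1.01 against 0.993. Xist, expressed from the inactive X chromosome, lay between 12775 and 14743 on the 4 arrays, and the brightest of 9 probe sets of 3 Y-linked genes reached 56.3, which matches the labelled sex. Proximal tubule markers were bright on both arrays, with a summed signal over 23 genes of 310265 and 342721.

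The 2 kidneys were close in expression. The median log2 difference of all expressed genes was 0.01, the lower and upper quartiles were -0.17 and 0.18, and 10338 of 11206 genes (92.3%) were less than 1.5-fold apart. At least 2-fold higher in the diabetic kidney were 86 genes (0.767%), and at least 2-fold lower were 68 genes (0.607%). At 1.5-fold these counts were 439 (3.92%) and 429 (3.83%). Pearson's r between the arrays across genes was 0.98, as a description, since genes are not independent replicates.

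**Figure D1:**
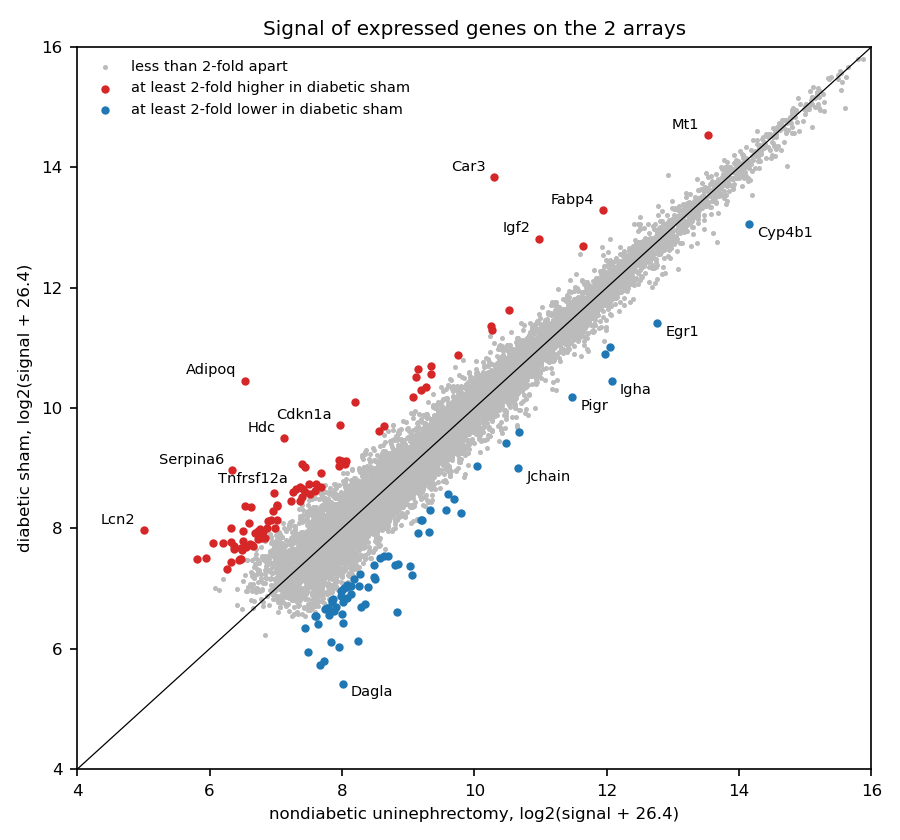
Signal of the 11206 expressed genes on the nondiabetic uninephrectomy array (x axis) and the diabetic sham array (y axis), both as log2(signal + 26.4); each point is 1 gene and the line marks equal signal. Red points are the 86 genes at least 2-fold higher and blue points the 68 genes at least 2-fold lower in the diabetic sham kidney; most of them lie at the dim end, and Car3, Igf2, Fabp4, Mt1 and Cyp4b1 are among the bright ones.

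Large differences were mostly those of dim genes. When expressed genes were split into 4 equal bins of mean level, 99 of 2802 (3.53%) were at least 2-fold apart, in the dimmest bin, against 13 of 2802 (0.464%) in the brightest. In 44 of the 86 higher and 37 of the 68 lower genes, the dimmer of the 2 signals was below the level that counted as expressed, a signal of about 107. When both arrays had to be above that level, 42 of 10772 genes passed 2-fold upward and 31 downward, an alternative chosen after the data were seen.

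A difference between these arrays can come from either side. Set against the nondiabetic sham array, 24 of the 86 higher genes were mainly displaced on the diabetic array, 30 mainly on the uninephrectomy array, and 32 were displaced in comparable amounts; a side was assigned when its deviation from the sham array was at least 2 times the other. Of the 68 lower genes, 28 were mainly displaced on the diabetic array, 20 mainly on the uninephrectomy array and 20 on both. Both deviations share the sham array, so a stray value there enters each of them. The same split over all expressed genes is not given here, so these counts describe the genes past 2-fold and do not set them apart.

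**Figure D2:**
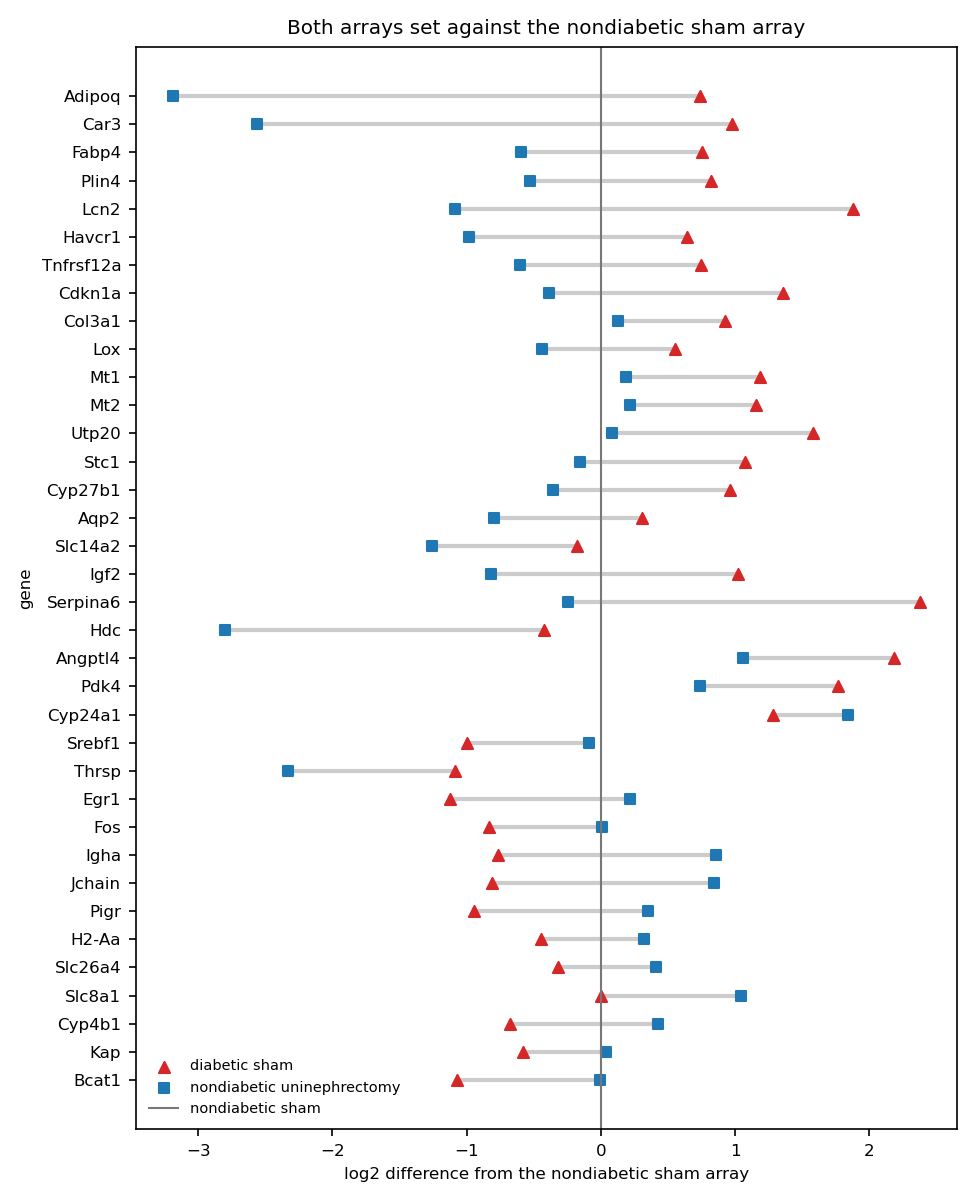
Log2 difference of selected genes from the nondiabetic sham array (vertical line at 0), for the diabetic sham array (red triangles) and the nondiabetic uninephrectomy array (blue squares); the grey bar between them is the difference described here. Adipoq, Car3 and Hdc are displaced mostly on the uninephrectomy array, Serpina6, Utp20, Mt1, Mt2 and Egr1 mostly on the diabetic array, and Angptl4, Pdk4, Cyp24a1 and Thrsp lie to one side of the sham array on both.

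Genes of fat cells made up the widest gap. Adipoq, the fat cell hormone adiponectin, had a signal of 1379.8 on the diabetic sham array, 66.2 on the nondiabetic uninephrectomy array, 817 on the nondiabetic sham array and 294 on the diabetic uninephrectomy array. Its log2 difference of 3.92, a 15.2-fold difference on the offset scale, was the highest of all expressed genes. Car3, a carbonic anhydrase abundant in fat and muscle, read 14558 on the diabetic sham array, 1229 on the nondiabetic uninephrectomy array, 7398 on the nondiabetic sham array and 2874 on the diabetic uninephrectomy array, with a log2 difference of 3.54. For both genes the uninephrectomy array was far below the nondiabetic sham array, by -3.19 for Adipoq and -2.56 for Car3, and the diabetic sham array above it, by 0.74 and 0.97. A second Car3 probe set gave 2.65, and another, dim one with 134 against 149, gave -0.13.

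Fabp4, the fatty acid binding protein of fat cells that capillary endothelium also makes, read 10019.9 against 3909 (log2 1.35), and its 4 probe sets ranged from 0.77 to 1.35. It read 5923 on the nondiabetic sham and 9899 on the diabetic uninephrectomy array. Plin4, a lipid droplet coat protein, differed by 1.35, the triglyceride lipase Pnpla2 by 1.11 and resistin, Retn, by 0.96. Lipoprotein lipase, Lpl, was level at -0.04. Of 17 adipocyte markers, 9 were expressed, with a median of 1.11. At least 2-fold higher were 5 and lower 0, against 0.767% and 0.607% of all expressed genes. The defining fat genes Lep, Cidec, Cidea and Ucp1 were below the expression level. The summed signal of the expressed markers was 49759 on the diabetic sham, 26249 on the uninephrectomy, 39626 on the nondiabetic sham and 30062 on the diabetic uninephrectomy array. In this sum both uninephrectomy arrays read lower than the sham array of the same diabetes state. Bright genes weigh most in it, such as Lpl at 19634 on the nondiabetic sham array. Fabp4 was nearly level between the diabetic arrays. Its other probe sets read 5833, 189 and 295 on the diabetic uninephrectomy array against 3949, 170 and 333 on the diabetic sham array. In whole tissue, fewer cells of a type and less RNA per cell cannot be told apart, and the part of adherent or hilar fat in the samples was not tested. Aoc3, an amine oxidase known from fat cells and smooth muscle, was higher too, at 189 against 40.2 (log2 1.69).

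A few tubular injury genes were higher in the diabetic kidney, from a low base. Lcn2, an iron carrier secreted by injured tubules, read 224 on the diabetic sham array, 5.70 on the nondiabetic uninephrectomy array, 41.7 on the nondiabetic sham array and 3374 on the diabetic uninephrectomy array. The uninephrectomy value lay far below the expression level, so the size of its log2 difference, 2.97, is set by the offset and ranged from 1.93 to 5.07 with other offsets. Havcr1, the injury marker KIM-1 of the proximal tubule, read 359 on the diabetic sham array, 98.8 on the nondiabetic uninephrectomy array, 221 on the nondiabetic sham array and 2552 on the diabetic uninephrectomy array (log2 1.62). Tnfrsf12a, the receptor of the cytokine TWEAK, read 375 on the diabetic sham array, 132 on the nondiabetic uninephrectomy array, 213 on the nondiabetic sham array and 1286 on the diabetic uninephrectomy array; its 2 probe sets gave 1.35 and 2.79. In each of these genes the order of the arrays was the same: uninephrectomy alone lowest, then nondiabetic sham, diabetic sham, and diabetic uninephrectomy highest by a wide margin.

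Of 14 expressed injury markers, of 19 listed, 3 were at least 2-fold higher and 0 lower, against 0.767% and 0.607% of all expressed genes. The 3 include Lcn2, which counted as expressed only through the diabetic uninephrectomy array. The list's median was 0.24, short of the 0.25 margin that it passed under 4 alternatives (0.26 to 0.38), and Vim, an intermediate filament gained by injured tubules, gave -0.51 on its brightest probe set but 0.17 on each of the other two. S100a6, a calcium binding protein, reached 0.97. The secreted chaperone clusterin, Clu, did not separate the 2 arrays: 11244 against 11462, with 7857 on the nondiabetic sham array.

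Cell cycle genes leaned to the diabetic side almost without exception. Among 21 expressed genes of 29, 20 had a difference above 0 and 1, cyclin D3 (Ccnd3, -0.14), below, against 48.5% of all expressed genes below 0. The median was 0.39, or 0.24 when probe sets of a gene were averaged. The median against the nondiabetic sham array was 0.44 for the diabetic sham and 0.00 for the uninephrectomy array. The 2 genes past 2-fold, against 0.767% of all expressed genes higher by as much, were Cdkn1a and Cdc20. Cdkn1a encodes p21, an inhibitor that arrests the cycle, unlike the other genes of the list named here; it read 815 on the diabetic sham array, 225 on the nondiabetic uninephrectomy array, 302 on the nondiabetic sham array and 1438 on the diabetic uninephrectomy array, with 1.28 and 1.74 for its 2 probe sets. Cdc20, an activator of mitotic exit, gave 1.13 on one probe set and 0.06 on the other. Replication genes differed less. Mcm3 and Mcm5, parts of the replicative helicase, differed by 0.96 and 0.64. Rrm1, a subunit of ribonucleotide reductase, differed by 0.63, though its second probe set gave -0.14. Against the nondiabetic sham array, Mcm3 and Rrm1 differed by -0.58 and -0.55 after uninephrectomy and by 0.38 and 0.08 in diabetes. Mcm5 differed from it by 0.00 after uninephrectomy and 0.64 in diabetes. One mitotic regulator outside the list went the other way: the transcription factor Foxm1 read 331 against 805, and both its probe sets were lower, at -1.22 and -1.57. Its level on the nondiabetic sham array was 425, so most of that gap lay on the uninephrectomy side.

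Extracellular matrix genes were modestly higher in the diabetic kidney. Of 38 expressed genes of 41, 32 were above 0 and 6 below, against 48.5% of all expressed genes below 0, and the median was 0.37. At least 1.5-fold higher were 8 and lower 0, against 3.92% and 3.83% of all expressed genes. Mmp14, a membrane-bound collagenase, was the one gene past 2-fold, at 184 against 73.5 (log2 1.08). It read 162 on the nondiabetic sham array, so most of its gap lay on the uninephrectomy side. Its differences from that array were 0.16 in diabetes and -0.91 after uninephrectomy. Over the whole list, the medians against the nondiabetic sham array were 0.35 for the diabetic sham and -0.01 for the uninephrectomy array. Lox and Loxl1, which cross-link collagen and elastin, differed by 227 against 101, which is just under 2-fold on the offset scale, and by 0.82 on the log2 scale. Col3a1, a fibrillar collagen, read 2150.2 on the diabetic sham array, 1229.7 on the nondiabetic uninephrectomy array, 1122 on the nondiabetic sham array and 6609.8 on the diabetic uninephrectomy array (log2 0.79), and Col1a2 differed by 0.70. The lead of the diabetic array was small beside the signal of the diabetic uninephrectomy array in Col3a1 and Lox, which read 227 and 547 on the diabetic arrays. Smooth muscle and mesangial markers, which mark cells that make matrix, had a median of 0.19 over 12 genes. Of these, 0 were past 2-fold, against 0.767% higher and 0.607% lower of all expressed genes. The part of these cells in the matrix genes was not tested. The basement membrane laminin Lamc1 gave -0.52 and Lama5 -0.52, but a second Lama5 probe set gave 0.38.

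Growth factor genes held one large difference. Igf2, a fetal growth factor, read 7192 on the diabetic sham array, 1982 on the nondiabetic uninephrectomy array, 3521 on the nondiabetic sham array and 3792 on the diabetic uninephrectomy array (log2 1.85). The diabetic sham value was the highest and the uninephrectomy value the lowest of the 4. Tgfa, a ligand of the EGF receptor, differed by 0.76 and Irs2, an adaptor of the insulin receptor, by 0.64, while Erbb2 was lower at -0.51. Over the 23 expressed genes of the IGF, EGF and HGF axis the median was 0.05. Among ribosome biogenesis genes the median was 0.08 over 24 genes, and a single one passed 2-fold: Utp20, a processing factor of the small ribosomal subunit, read 1580.3 on the diabetic sham array, 542 on the nondiabetic uninephrectomy array, 509 on the nondiabetic sham array and 1445 on the diabetic uninephrectomy array, so both diabetic arrays were high and both nondiabetic arrays low.

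**Figure D3:**
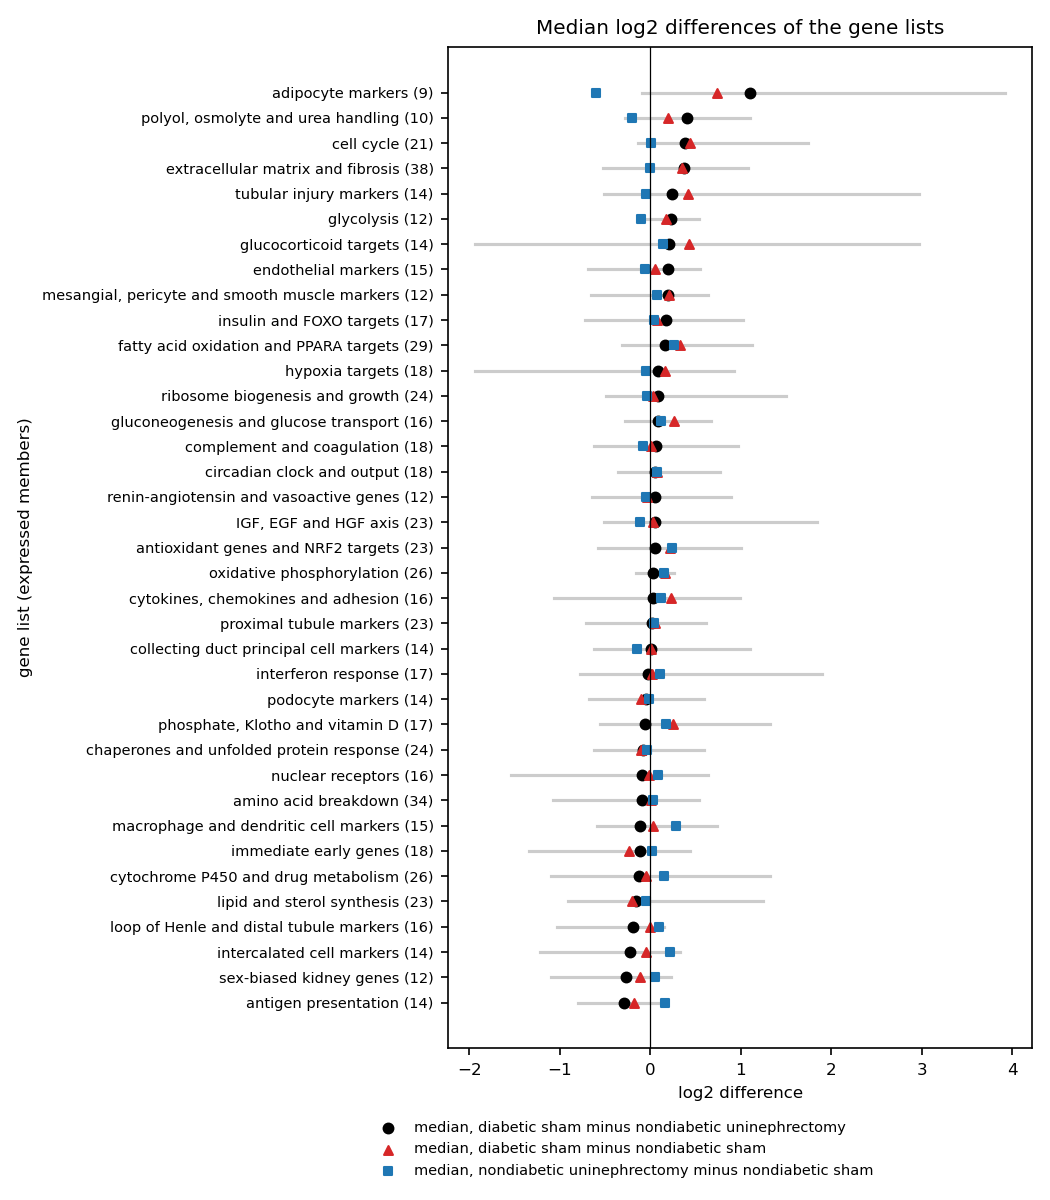
Median log2 difference of each gene list with at least 5 expressed members (number in brackets): black circles for diabetic sham minus nondiabetic uninephrectomy, with the grey bar from the lowest to the highest member, red triangles and blue squares for each of these arrays minus nondiabetic sham. Adipocyte markers stand highest at 1.11 and antigen presentation lowest at -0.30, and 31 of 37 medians lie within 0.25 of the median of all genes.

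Of 37 lists with at least 5 expressed members, 4 had a median more than 0.25 above that of all genes (adipocyte, polyol and urea handling, cell cycle, matrix) and 2 more than 0.25 below it (antigen presentation, sex-biased genes). The other 31 were closer.

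Angptl4 and Pdk4, on the lists of fatty acid and insulin-responsive genes, were at least 2-fold higher in the diabetic kidney. Angptl4, a secreted inhibitor of lipoprotein lipase induced through PPARs, read 1858 on the diabetic sham array, 839 on the nondiabetic uninephrectomy array, 389 on the nondiabetic sham array and 2139 on the diabetic uninephrectomy array. It lay 2.18 above the nondiabetic sham array in the diabetic kidney and 1.06 above it in the uninephrectomised one, leaving a difference of 1.12. Pdk4, a kinase that shuts pyruvate out of the mitochondrion and is repressed by insulin, read 2496 on the diabetic sham array, 1212 on the nondiabetic uninephrectomy array, 716 on the nondiabetic sham array and 2201 on the diabetic uninephrectomy array, with 1.76 and 0.74 from the sham array and 1.03 between the 2 arrays. Cyp4a12a, a fatty acid hydroxylase of a family with close copies, differed by 0.76, and the thioesterase Acot2 by 0.58. Over 29 expressed fatty acid oxidation genes the median between the 2 arrays was 0.16, with 1 gene past 2-fold. Oxidative phosphorylation subunits were even closer, from -0.16 to 0.26 over 26 genes.

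Srebf1, Scd1 and Insig1 were lower in the diabetic kidney, while lipid synthesis genes as a list lay near the median of all genes. Srebf1, the transcription factor that insulin induces to drive fat synthesis, read 1004 on the diabetic sham array, 1912 on the nondiabetic uninephrectomy array, 2033 on the nondiabetic sham array and 1044 on the diabetic uninephrectomy array (log2 -0.91). Scd1, a desaturase it controls, read 16707 against 27032 (-0.69), and Insig1, a sterol sensor, differed by -0.66. For Srebf1 and Scd1 both diabetic arrays were low and both nondiabetic arrays high. Thrsp, a lipogenic gene abundant in fat, was the exception: it read 376 on the diabetic sham array, 144 on the nondiabetic uninephrectomy array, 829 on the nondiabetic sham array and 154 on the diabetic uninephrectomy array, and its log2 difference of 1.24 went with differences from the sham array of -1.09 in diabetes and -2.33 after uninephrectomy; a dimmer probe set gave 0.35. The median over 23 expressed lipid and sterol genes was -0.16.

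Glucose handling differed in a few transporters. Slc5a10, a sodium-coupled sugar carrier of the proximal tubule, read 9202 on the diabetic sham array, 5792 on the nondiabetic uninephrectomy array, 5468 on the nondiabetic sham array and 8649 on the diabetic uninephrectomy array (log2 0.67), high on both diabetic arrays. Slc2a2, the basolateral glucose exit carrier GLUT2, differed by 0.45. G6pc, which releases free glucose at the end of gluconeogenesis, was slightly lower at -0.28. Neither gluconeogenesis and glucose transport (16 genes, median 0.08) nor glycolysis (12 genes, median 0.22) held a gene past 2-fold. Of all expressed genes, 0.767% were that much higher and 0.607% that much lower.

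Amino acid breakdown enzymes as a list lay near all genes: 21 of 34 were below 0, against 48.5% of all expressed genes, and the median was -0.10, or 0.00 for the diabetic sham against the nondiabetic sham array. Bcat1, the cytosolic aminotransferase of branched-chain amino acids, read 753 on the diabetic sham array, 1611 on the nondiabetic uninephrectomy array, 1616 on the nondiabetic sham array and 863 on the diabetic uninephrectomy array (log2 -1.07), low on both diabetic arrays. Its other probe sets gave -0.79 and -0.27. Cbs, which makes cystathionine from homocysteine, differed by -0.69 and Hpd, an enzyme of tyrosine breakdown, by -0.65.

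Metallothioneins, small cysteine-rich proteins that bind zinc and copper and are induced by metals and glucocorticoids, were higher in the diabetic kidney. Mt1 read 23634 on the diabetic sham array, 11798 on the nondiabetic uninephrectomy array, 10378 on the nondiabetic sham array and 17381 on the diabetic uninephrectomy array. Mt2 read 14922 on the diabetic sham array, 7786 on the nondiabetic uninephrectomy array, 6695 on the nondiabetic sham array and 12659 on the diabetic uninephrectomy array. Both diabetic arrays were above both nondiabetic arrays for each gene. The log2 differences were 1.0 for Mt1 and 0.94 for Mt2, and a dim second Mt1 probe set, 252 against 258, gave -0.03. Against the sham array the uninephrectomised kidney differed by 0.18 and 0.22. Among 23 expressed antioxidant genes and NRF2 targets, 1 passed 2-fold, Mt1 itself, and the median was 0.05. The promoters of the pair, both higher here, are shown because both hold several copies of the metal response element bound by the zinc sensor MTF1. They are RefSeq sequence of GRCm38.p6, 300 bases from 250 before to 50 after the start, 5' to 3' on the gene's strand, with matches to TGCACNC or TGCGCNC on either strand in capitals. The Mt1 window is chr8:94178839-94179138 on the plus strand and holds 3 matches; the Mt2 window is chr8:94172368-94172667 on the plus strand and holds 4.
Mt1: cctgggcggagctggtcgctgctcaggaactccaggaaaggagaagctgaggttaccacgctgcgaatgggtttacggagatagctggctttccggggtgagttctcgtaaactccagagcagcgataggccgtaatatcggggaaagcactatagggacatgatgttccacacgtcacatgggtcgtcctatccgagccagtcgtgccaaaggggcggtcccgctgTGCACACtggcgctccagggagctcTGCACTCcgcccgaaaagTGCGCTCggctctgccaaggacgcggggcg
Mt2: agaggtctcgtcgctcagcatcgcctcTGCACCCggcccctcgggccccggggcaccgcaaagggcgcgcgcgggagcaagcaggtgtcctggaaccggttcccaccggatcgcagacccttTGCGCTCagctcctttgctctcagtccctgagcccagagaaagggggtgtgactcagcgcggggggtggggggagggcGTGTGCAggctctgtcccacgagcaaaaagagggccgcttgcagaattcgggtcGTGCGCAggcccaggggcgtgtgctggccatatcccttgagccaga
Of 32851 promoter windows of this length, 25.7% hold at least one match, 1.97% hold as many as Mt1 and 0.517% as many as Mt2. A match describes the letters and is not a bound site.

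Collecting duct water and urea genes were low on the nondiabetic uninephrectomy array. Aqp2, the water channel that vasopressin inserts in principal cells, read 3129 on the diabetic sham array, 1446 on the nondiabetic uninephrectomy array, 2531 on the nondiabetic sham array and 3583 on the diabetic uninephrectomy array (log2 1.10). Slc14a2, the urea transporter of the inner medulla, read 499.6 on the diabetic sham array, 223 on the nondiabetic uninephrectomy array, 569 on the nondiabetic sham array and 422 on the diabetic uninephrectomy array (log2 1.08), and Slc14a1, the urea carrier of the descending vasa recta, differed by 0.97. In both Aqp2 and Slc14a2 the uninephrectomy array was the lowest of the 4, and the diabetic sham array was close to the nondiabetic sham array, at 0.30 and -0.18. Arg2, a mitochondrial arginase, differed by 0.53, and the water and glycerol channel Aqp3 by 0.41. The polyol, osmolyte and urea list, with 10 of 13 genes expressed, had a median of 0.41 (0.24 with a stricter filter), while the 14 principal cell markers were balanced around 0.01. How much medulla each pool held was not tested.

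Of 14 expressed markers of intercalated cells, which secrete acid or bicarbonate, 12 were below 0, against 48.5% of all expressed genes. Their median of -0.23 was within the 0.25 margin. Atp6v1c2 and Atp6v1b1, subunits of the proton pump, differed by -1.22 and -0.64. Slc26a4, the chloride and bicarbonate exchanger pendrin of bicarbonate-secreting cells, read 1987 on the diabetic sham array, 3309 on the nondiabetic uninephrectomy array, 2485 on the nondiabetic sham array and 1261 on the diabetic uninephrectomy array (log2 -0.73), highest after uninephrectomy alone. In the loop and distal tubule, 12 of 16 markers were below 0, against 48.5% of all expressed genes. Their median of -0.19 was also within the margin. Slc8a1, the sodium-calcium exchanger of the distal tubule, read 2048 on the diabetic sham and 4228 on the nondiabetic uninephrectomy array. It read 2041 on the nondiabetic sham and 2217 on the diabetic uninephrectomy array. On this probe set the uninephrectomy array stood apart from 3 nearly equal arrays, giving -1.04. A second Slc8a1 probe set gave -0.58 with another pattern, low on both diabetic arrays. It read 785 on the diabetic sham and 678 on the diabetic uninephrectomy array. On the nondiabetic sham and nondiabetic uninephrectomy arrays it read 1088 and 1190. The calcium buffer Pvalb differed by -0.71.

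Hormone genes of mineral balance differed in opposite directions. Cyp27b1, which makes active vitamin D, read 386 on the diabetic sham array, 138 on the nondiabetic uninephrectomy array, 185 on the nondiabetic sham array and 818 on the diabetic uninephrectomy array (log2 1.32). Cyp24a1, which degrades it, read 2582 on the diabetic sham array, 3819.5 on the nondiabetic uninephrectomy array, 1047 on the nondiabetic sham array and 2004 on the diabetic uninephrectomy array; it was above the sham array by 1.28 in diabetes and 1.84 after uninephrectomy, a difference of -0.56. Stc1, the calcium- and phosphate-regulating hormone stanniocalcin, read 251 on the diabetic sham array, 91.6 on the nondiabetic uninephrectomy array, 105 on the nondiabetic sham array and 263 on the diabetic uninephrectomy array (log2 1.23), high on both diabetic arrays. Over the 17 expressed genes of this list the median was -0.06, with 2 at least 2-fold higher, against 0.767% of all expressed genes.

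Igha, Jchain, Igkv8-30 and Pigr had some of the lowest differences under the naming rules, which is why they are given. Igha, the heavy chain of IgA, read 1369.9 on the diabetic sham array, 4288 on the nondiabetic uninephrectomy array, 2352 on the nondiabetic sham array and 5204 on the diabetic uninephrectomy array, and its 3 probe sets differed by -1.63 to -1.47. Jchain, which joins IgA into polymers, read 486 on the diabetic sham array, 1591 on the nondiabetic uninephrectomy array, 874 on the nondiabetic sham array and 2699.9 on the diabetic uninephrectomy array (log2 -1.66), and the light chain gene Igkv8-30 differed by -1.55. In these 3 genes the diabetic sham array was the lowest of the 4 and both uninephrectomy arrays were above both sham arrays. Immunoglobulin genes share sequence, so which chain a probe set reads is uncertain. Of 18 lymphocyte and plasma cell markers 3 were expressed, too few for a median: Jchain, Ptprc (-0.55) and Ighm, whose brightest probe set gave -0.37 and whose probe sets ranged from -0.79 to 0.66. Pigr, the epithelial receptor that carries polymeric IgA into the lumen, had another pattern: 1131 on the diabetic sham array, 2826 on the nondiabetic uninephrectomy array, 2204 on the nondiabetic sham array and 1180.0 on the diabetic uninephrectomy array, low on both diabetic arrays, with probe sets at -1.30 and -1.01.

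Antigen presentation genes were lower as a group, by small amounts. Of 14 expressed genes, 12 were below 0, against 48.5% of all expressed genes, with a median of -0.30. At least 1.5-fold lower were 4, against 3.83% of all expressed genes, and 0 were 2-fold lower, against 0.607%. Nlrc5, the activator of class I genes, differed by -0.80. H2-Aa, a class II chain, read 1957 on the diabetic sham array, 3353 on the nondiabetic uninephrectomy array, 2679.8 on the nondiabetic sham array and 5195 on the diabetic uninephrectomy array, with 3 probe sets from -1.62 to -0.70, and H2-Eb1 differed by -0.69. H2-Ab1 differed by -0.57 on its brightest probe set and by -1.26 and -1.17 on the others. Class II genes resemble each other, so their probe sets may share signal. Dendritic cell and macrophage markers had a median of -0.12 over 15 genes, and their part was not tested. The promoters of H2-Aa and H2-Eb1 are shown for the Y box, the element bound by NF-Y in class II promoters, searched as CTGATTGG on both strands and set in capitals in the same 300-base windows: chr17:34287774-34288073 on the minus strand and chr17:34305617-34305916 on the plus strand.
H2-Aa: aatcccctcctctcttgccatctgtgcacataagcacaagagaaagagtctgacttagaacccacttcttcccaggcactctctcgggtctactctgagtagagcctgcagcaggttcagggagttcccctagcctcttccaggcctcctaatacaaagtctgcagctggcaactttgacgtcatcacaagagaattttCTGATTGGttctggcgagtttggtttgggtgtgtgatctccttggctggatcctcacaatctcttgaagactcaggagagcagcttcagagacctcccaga
H2-Eb1: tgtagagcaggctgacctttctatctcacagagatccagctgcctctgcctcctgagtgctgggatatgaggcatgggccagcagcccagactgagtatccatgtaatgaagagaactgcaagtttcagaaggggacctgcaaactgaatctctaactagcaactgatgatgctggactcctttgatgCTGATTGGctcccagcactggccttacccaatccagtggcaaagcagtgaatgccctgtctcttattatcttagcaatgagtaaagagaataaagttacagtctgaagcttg
Each holds 1 match, as do 4.1% of the 32851 windows.

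Interferon and chemokine genes split. Ifi27l2a and Irf7, both induced by type I interferon, were higher on the diabetic sham array, at 1073 against 268 (log2 1.90) and 155 against 34.9 (log2 1.57). For Ifi27l2a the nondiabetic sham array read 423 and the diabetic uninephrectomy array 461. For Irf7 the nondiabetic uninephrectomy array alone was low, with 139.7 on the nondiabetic sham and 154 on the diabetic uninephrectomy array. Igtp, Gbp6 and Iigp1, GTPases induced by interferon gamma, were lower, at -0.77, -1.03 and -0.84. Oas2, an antiviral synthetase, differed by -0.71. The list's median was -0.02 over 17 genes. Cxcl1, a neutrophil chemokine, read 256 on the diabetic sham array, 566 on the nondiabetic uninephrectomy array, 430.5 on the nondiabetic sham array and 833 on the diabetic uninephrectomy array, with 3 probe sets from -1.41 to -1.07, and Csf1, a macrophage growth factor, differed by -0.65. The chemokine Ccl8 was higher, at 0.99.

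**Figure D4:**
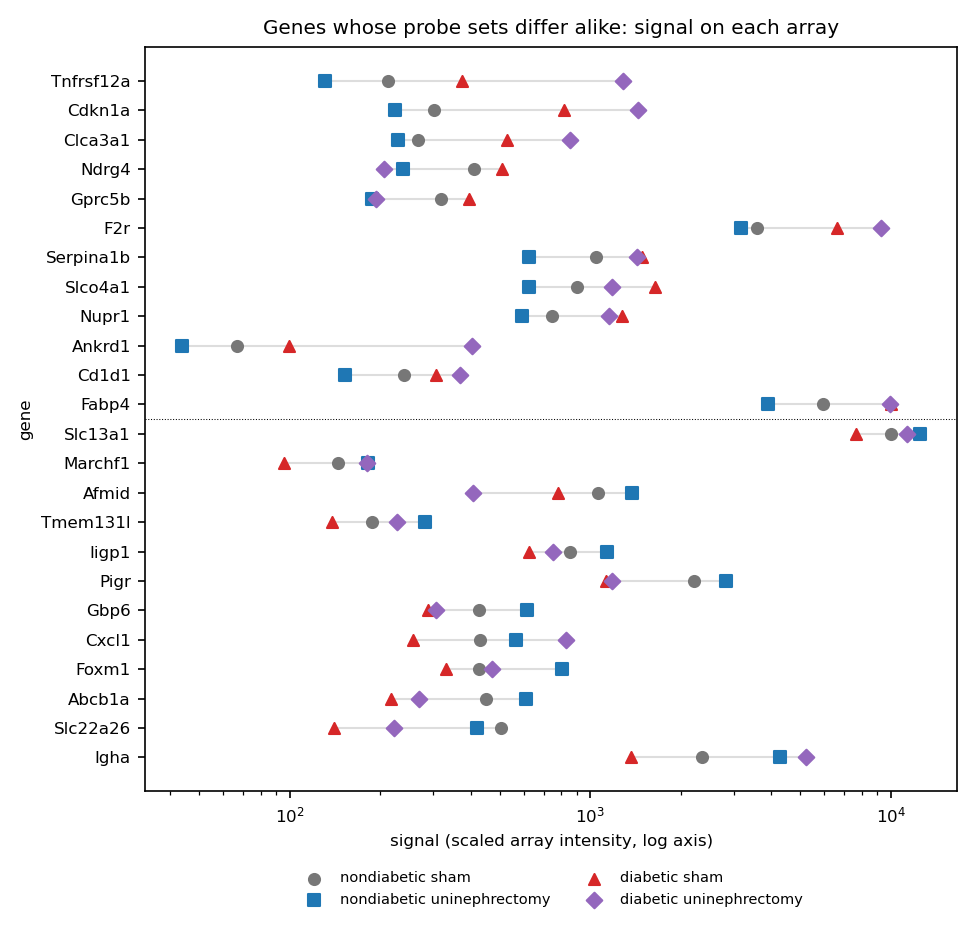
Signal on each of the 4 arrays (log axis) for the 12 highest and 12 lowest genes whose probe sets all differ in the same direction, above and below the dotted line; grey circles are nondiabetic sham, blue squares nondiabetic uninephrectomy, red triangles diabetic sham and purple diamonds diabetic uninephrectomy. Pigr and Abcb1a are low on both diabetic arrays, while Igha and Cxcl1 are low on the diabetic sham array and highest on the diabetic uninephrectomy array.

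Genes read by several probe sets give the nearest thing to a repeat on these arrays, though the probe sets share the RNA. The genes named here were picked because all their probe sets differ in the same direction, so that agreement was fixed by the choice. Of 4924 genes with 2 or more expressed probe sets, 1157 were higher and 1135 lower on all of them. At least 2-fold on all of them were 4 higher and 7 lower genes. F2r, the thrombin receptor PAR1, read 6619 on the diabetic sham array, 3169.9 on the nondiabetic uninephrectomy array, 3590.4 on the nondiabetic sham array and 9283 on the diabetic uninephrectomy array, with probe sets at 0.96 and 1.06. Slco4a1, an organic anion carrier, read 1639 on the diabetic sham array, 625 on the nondiabetic uninephrectomy array, 902 on the nondiabetic sham array and 1178 on the diabetic uninephrectomy array, and the stress-induced chromatin protein Nupr1 read 1278 against 591 (log2 1.08). Serpina1b, an alpha-1 antitrypsin copy whose close relatives may share its probes, read 1481 against 626 (log2 1.21). Among the lower genes, Abcb1a, a P-glycoprotein drug pump, read 218 on the diabetic sham array, 609.6 on the nondiabetic uninephrectomy array, 449.6 on the nondiabetic sham array and 269 on the diabetic uninephrectomy array, with probe sets at -1.38 and -1.76. Slc22a26, an organic anion transporter, read 141 on the diabetic sham array, 419.5 on the nondiabetic uninephrectomy array, 506 on the nondiabetic sham array and 222 on the diabetic uninephrectomy array (log2 -1.41), and Slc13a1, the sulfate transporter of the proximal tubule, read 7626 against 12505 (log2 -0.71). For Abcb1a and Slc22a26 both diabetic arrays were below both nondiabetic ones.

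Not every large difference was seen by a second probe set. Of the 86 higher genes, 21 had another expressed probe set, and in 14 (66.7%) the median of the others had the same sign; the share over all genes whose brightest probe set was above 0 was 57.5%. Of the 68 lower genes, 11 had another one, and all 11 had the same sign, against 61% of all genes below 0. The median of the others was 0.35 for the higher genes against 1.14 for the brightest probe sets, and -1.16 against -1.30 for the lower genes. These shares were not tested against each other.

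**Figure D5:**
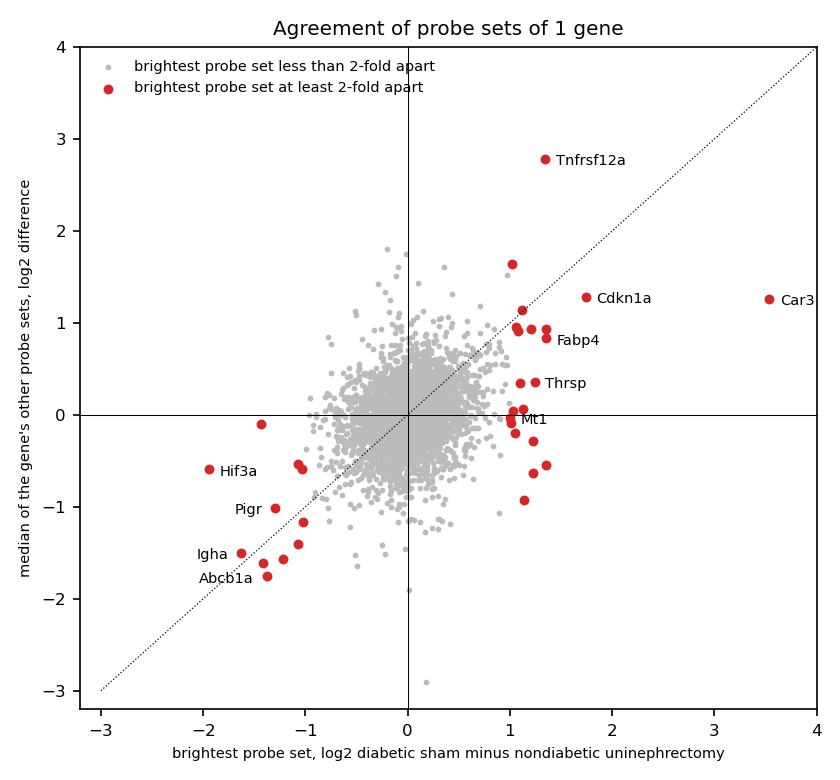
Log2 difference of each gene's brightest probe set (x axis) against the median of its other expressed probe sets (y axis), for the 4924 genes with 2 or more; red points are the 21 higher and 11 lower genes at least 2-fold apart, and the dotted line marks equality. The 11 lower genes all lie below 0 on the y axis, whereas 7 of the 21 higher genes, Mt1 among them, do so too.

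Immediate early genes, which are switched on within minutes of a stimulus, included several with a lower signal in the diabetic kidney. Egr1, a zinc finger transcription factor, read 2700.5 on the diabetic sham array, 6902 on the nondiabetic uninephrectomy array, 5930.1 on the nondiabetic sham array and 3601 on the diabetic uninephrectomy array (log2 -1.35). Ier2 differed by -0.95, and Fos, a subunit of AP-1, read 741 on the diabetic sham array, 1345 on the nondiabetic uninephrectomy array, 1339.6 on the nondiabetic sham array and 1338 on the diabetic uninephrectomy array (log2 -0.84); the mRNA decay factor Zfp36 differed by -0.62. For Egr1 both diabetic arrays were low, and for Fos the diabetic sham array alone. Of 18 expressed genes 11 were below 0, against 48.5% of all expressed genes. The median was -0.12, or -0.34 with a stricter filter and 0.03 with none. How long each kidney waited before freezing was not tested.

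Other stress and hormone programmes differed in single genes. Among hypoxia targets (18 genes, median 0.09), the vasodilator peptide Adm read 617 on the diabetic sham array, 329 on the nondiabetic uninephrectomy array, 271 on the nondiabetic sham array and 503 on the diabetic uninephrectomy array (log2 0.86), and Ddit4, an inhibitor of mTORC1, differed by 0.92. Hif3a, a HIF subunit, read 29.1 on the diabetic sham array, 186 on the nondiabetic uninephrectomy array, 194 on the nondiabetic sham array and 149 on the diabetic uninephrectomy array; its log2 difference of -1.94 came from 1 array, and its other probe set gave -0.59. Of 14 expressed glucocorticoid targets, 3 were at least 2-fold higher and 1 lower, against 0.767% and 0.607% of all expressed genes. The higher were Lcn2, Cdkn1a and Mt1, the lower was Hif3a, and the list's median was 0.21. Fkbp5, a chaperone of the glucocorticoid receptor, gave 0.62 on one probe set and -0.47 on the other. Nr0b2, the repressor SHP, read 35.3 against 153 (log2 -1.54), with the diabetic sham array the one low value of the 4. Agt, angiotensinogen, read 946 on the diabetic sham array, 499.9 on the nondiabetic uninephrectomy array, 743 on the nondiabetic sham array and 1132 on the diabetic uninephrectomy array (log2 0.89). Ciart, a clock repressor, differed by 0.77, and the median over 18 clock genes was 0.05. Chaperones and the unfolded protein response had a median of -0.09 over 24 genes. None was past 2-fold, against 0.767% higher and 0.607% lower of all expressed genes.

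Genes known to differ between male and female kidneys leaned lower on the diabetic sham than on the nondiabetic uninephrectomy array. Of 12 expressed sex-biased kidney genes, 10 were below 0, against 48.5% of all expressed genes, with a median of -0.27. With no filter, a stricter filter, a filter on the 2 arrays or the mean of probe sets, the median came within 0.25 of all genes (-0.19 to -0.22). Against the nondiabetic sham array the median was -0.11 for the diabetic sham and 0.05 for the uninephrectomy array. Cyp4b1, a fatty acid and xenobiotic hydroxylase, read 8491 on the diabetic sham array, 18208 on the nondiabetic uninephrectomy array, 13572 on the nondiabetic sham array and 8881 on the diabetic uninephrectomy array (log2 -1.10), and Kap, the androgen-regulated protein of the proximal tubule, read 32343 on the diabetic sham array, 49675 on the nondiabetic uninephrectomy array, 48290.4 on the nondiabetic sham array and 28539 on the diabetic uninephrectomy array (log2 -0.62). Both diabetic arrays were below both nondiabetic arrays for these genes. Nat8f5, an acetyltransferase, read 2181.5 on the diabetic sham and 3958 on the nondiabetic uninephrectomy array (log2 -0.85). It read 2052 on the nondiabetic sham and 3565 on the diabetic uninephrectomy array, so both uninephrectomy arrays were high. Cyp7b1, an oxysterol hydroxylase, differed by -0.70. Among drug metabolism genes, Ephx1, the microsomal epoxide hydrolase, was higher, at 2596 on the diabetic sham array, 1199 on the nondiabetic uninephrectomy array, 1469.8 on the nondiabetic sham array and 2345 on the diabetic uninephrectomy array (log2 1.10), while the median over 26 genes was -0.12.

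Podocyte, endothelial and proximal tubule markers held no gene past 2-fold. Of all expressed genes, 0.767% were that much higher and 0.607% that much lower, so an empty list of this length does not stand out. Podocyte markers had a median of -0.05 over 14 genes, with Nphs1, the slit diaphragm protein nephrin, at 254 against 420.5 (log2 -0.67) and the actin-binding Synpo at 0.59. Endothelial markers had a median of 0.20 over 15 genes, and proximal tubule markers 0.01 over 23. Complement and coagulation genes had a median of 0.07 and macrophage markers -0.12, both 0.25 with a stricter filter.

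Several of the widest differences rest on 1 dim probe set. Of the 15 highest and the 15 lowest genes, 13 in each set had a single expressed probe set. A single one was also common over all 11206 expressed genes, of which 4924 had 2 or more. Serpina6, the corticosteroid carrier of plasma, read 474 on the diabetic sham array, 54.9 on the nondiabetic uninephrectomy array, 69.9 on the nondiabetic sham array and 101 on the diabetic uninephrectomy array (log2 2.62), with the diabetic sham array the one high value. Hdc, the histamine-forming decarboxylase, read 698 on the diabetic sham array, 113 on the nondiabetic uninephrectomy array, 946 on the nondiabetic sham array and 496 on the diabetic uninephrectomy array (log2 2.38), with the uninephrectomy array the one low value. Sema3f, a guidance protein, read 512 against 143 (log2 1.67). At the other end, Dagla, which makes an endocannabinoid, read 16.4 on the diabetic sham array, 231 on the nondiabetic uninephrectomy array, 218 on the nondiabetic sham array and 188 on the diabetic uninephrectomy array (log2 -2.59, and -1.77 to -3.74 with other offsets), and Gpr153, an orphan receptor, read 26.5 against 177 (log2 -1.94); in both the diabetic sham array was the one low value. Nwd1 read 71.3 on the diabetic sham array, 432 on the nondiabetic uninephrectomy array, 112 on the nondiabetic sham array and 307 on the diabetic uninephrectomy array (log2 -2.23). The probe set of Rps27, a ribosomal protein gene, read 124 against 506 (log2 -1.83). It read 111 on the nondiabetic sham and 159 on the diabetic uninephrectomy array, so the nondiabetic uninephrectomy array was the one high value and the others lay near the expression level of about 107. Anxa13, an epithelial annexin, read 139.7 on the diabetic sham array, 496 on the nondiabetic uninephrectomy array, 341 on the nondiabetic sham array and 146 on the diabetic uninephrectomy array (log2 -1.65). For Anxa13 both diabetic arrays were low.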

How the data were processed

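Kidney RNA was measured on 4 Affymetrix arrays, 1 for each pool of 4 mice. The authors deposited linear intensity values for 45101 probe sets. What software and background correction they used is not given here. The mean without the outer 2% was 500.003 on each array, so the deposited intensity values had been scaled.

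Of 45037 probe sets that are not controls, the platform annotation named 34945 with 1 gene symbol and 932 with several, and 9160 are unnamed here. Symbols were checked through a RefSeq table of GRCm38.p6, which held 34741 and altered 0. Values were set as log2(value + 26.4), the offset being the 20th percentile, with no further normalisation. Each gene took its probe set with the highest mean, and was expressed when the mean over 4 arrays reached 7.06, the median of the probe sets. Differences were computed with Python 3.11.15, pandas 2.3.3 and numpy 2.4.6, and the calculation was tested on simulated data.

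With 1 array a group there is no test. Named genes were the 15 highest and lowest, the 12 highest and lowest with probe sets that differ alike, and up to 5 expressed members of each list; Ccnd3, Clu, Fkbp5, Lama5, Lamc1, Lpl and Retn were named after their values were seen. The members and the 39 lists were chosen with earlier results of these data known. Alternatives were other offsets, filters, normalisations, probe set rules and folds.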

Additional observations from a re-analysis of the deposited data

How the results depend on the processing

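No list median past its margin changed sign under the alternatives run (37 lists), nor did a named gene past 2-fold under the 4 run for the 213 named genes (both offsets, quantile normalisation and median centring); filters and averaged probe sets were not run for single genes, and probe sets of a gene can differ in sign, as given for Mt1, Vim and Rrm1. The counts of genes at least 2-fold apart, 86 higher and 68 lower, moved most with the filter: 624 and 666 with no filter, 20 and 15 with a stricter one, and 42 and 31 with both arrays above the filter level, an alternative chosen after seeing the data. An offset of 72.5 gave 47 and 36, and an offset of 1 gave 119 and 105. Probe sets counted singly gave 137 and 139, and averaging each gene's probe sets gave 56 and 56. The counts were 439 and 429 at 1.5-fold and 15 and 13 at 3-fold. A list median was past or short of the 0.25 margin as before in 285 of 296 cases; the sex-biased, tubular injury, cell cycle, polyol and immediate early lists made up the rest. Small medians could change sign: under the stricter filter that of macrophage markers became 0.25, of interferon genes 0.20, of podocyte markers 0.06 and of clock genes -0.05. With averaged probe sets it became -0.03 for ribosome biogenesis and -0.12 for hypoxia targets. Mt1 fell just under 2-fold with quantile normalisation (0.97). No paired analysis was possible because each group has 1 array.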

Other observations

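Some genes stood apart from the nondiabetic sham array on both arrays. They were picked after their values were seen, as the genes with 2 or more probe sets displaced the same way on both arrays, and both displacements share that 1 sham array. A stray value there cannot be told apart from a shift on the other 2 arrays, and the hybridisation spike-ins were also 1.24-fold and 1.23-fold of the sham array on the diabetic sham and uninephrectomy arrays. Clu, a secreted chaperone, read 7857 on the nondiabetic sham array, 11462 after uninephrectomy, 11244 in diabetes and 21781 with both. Aqp4, the basolateral water channel of the collecting duct, read 5296, 2305, 2221 and 2596 in the same order, so all 3 other arrays were below the sham array. Lpl, lipoprotein lipase, read 19634, 14095, 13708 and 9997, lowest with both conditions. Bbox1, which makes carnitine in the kidney, read 195, 299.8, 588 and 302, and it also separated the 2 kidneys, by 0.91 on the log2 scale. The chemokine Cxcl13 read 208, 331, 319.7 and 269, and the mitochondrial carrier Slc25a25 read 724, 1152, 1033 and 918.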
